A study of Mus musculus with 12 samples.

Results

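The 8 genes Lifr, Il6st, Jak1, Stat3, Socs3, Pim1, Pim2 and Pim3 carry the leukaemia inhibitory factor (LIF) signal in mouse embryonic stem cells (ESCs), and were read out of 18412 genes measured. They were taken by their symbols, and all 8 were found in each of the 4 deposited tables. They were chosen by symbol with the exonic and intronic differences between knockout and wild type in these data in view. Their values and fold changes are thus a description, and the calls given for them below are no independent support. PolyA RNA was sequenced with strand kept, in 12 libraries of 4 groups. Dicer1-/- ESCs (3 libraries) lack the nuclease that cuts microRNA hairpins, and were set against the wild-type line TFC (3 libraries). Dgcr8-/- ESCs (3 libraries) lack the RNA-binding protein that guides Drosha to microRNA precursors, and were set against the wild-type line V6.5 (3 libraries). All groups grew on gelatin in medium with 15% serum and 1000 units of LIF per ml, so the LIF added did not vary between groups. The labels name 1 line per group and give no further detail of the alleles, so what the missing factor does and how the lines differ otherwise cannot be told apart.

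LIF binds the receptor Lifr, which pairs with the shared signalling chain gp130, the product of Il6st. Jak1, a tyrosine kinase held by gp130, then phosphorylates Stat3, which enters the nucleus and switches on target genes, among them Socs3, whose product binds gp130 and Jak and shuts the signal down. In mouse ESCs this route holds cells in self-renewal, and the serine/threonine kinases Pim1 and Pim3 have been described as Stat3-dependent genes there. Pim kinases are active as soon as they are made, so their amount follows synthesis and turnover more than phosphorylation.

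MicroRNAs were not measured here. Sequences of ESC microRNAs, whose usual making needs Dicer1 and Dgcr8, are shown first, with the matches to their seeds in the members' 3′ untranslated regions (UTRs). Mature sequences are from RefSeq (GRCm38.p6), 5′ to 3′, with the seed, bases 2 to 8, in capitals. The ESC clusters around miR-290 and miR-302 share 1 seed among miR-291a-3p, miR-294-3p, miR-295-3p and miR-302d-3p, while miR-290a-3p differs in its last seed base, and miR-17-5p shares most of the seed in a register moved by 1 base.
miR-291a-3p: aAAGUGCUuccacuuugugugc
miR-294-3p: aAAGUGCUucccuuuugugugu
miR-290a-3p: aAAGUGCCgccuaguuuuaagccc
miR-17-5p: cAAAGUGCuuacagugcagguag

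In the longest annotated 3′ UTR of each gene (GENCODE M21, GRCm38), 7-base complements of these seeds were found in 5 of the 8 genes. The match to miR-17-5p, GCACTTT, lay in Il6st, Jak1 and Stat3, and in 12.2% of all 21173 UTRs. The match to miR-291a-3p, AGCACTT, lay in Il6st, and in 15.3% of all UTRs. The match to miR-290a-3p, GGCACTT, lay in Lifr, Stat3 and Pim2, and in 8.53% of all UTRs. The sites are written with 30 bases of context and the match in capitals. The first 2 sites of Il6st overlap by 6 bases and are the same stretch read in both registers, and so are the first 2 sites of Stat3.
Il6st, miR-291a-3p, chr13:112505279-112505308, plus strand: ctggttgaggaAGCACTTtatccagaatgt
Il6st, miR-17-5p, chr13:112505280-112505309, plus strand: tggttgaggaaGCACTTTatccagaatgtc
Il6st, miR-17-5p, chr13:112509048-112509077, plus strand: ttaaagcaaatGCACTTTgctagcctggcg
Jak1, miR-17-5p, chr4:101152392-101152421, minus strand: tcgctctatatGCACTTTgtttactcttta
Stat3, miR-290a-3p, chr11:100888531-100888560, minus strand: tgggcaatctgGGCACTTtttaaaatagag
Stat3, miR-17-5p, chr11:100888530-100888559, minus strand: gggcaatctggGCACTTTttaaaatagaga
Stat3, miR-17-5p, chr11:100888283-100888312, minus strand: ctcctggctctGCACTTTcaaccttgctaa
Lifr, miR-290a-3p, chr15:7194711-7194740, plus strand: cttactgcttaGGCACTTactcagatagaa
Pim2, miR-290a-3p, chrX:7882826-7882855, plus strand: gtccctacactGGCACTTcctatactacca

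The UTRs differ in length, and a longer one holds more matches by length alone. Lifr had 6320 bases of 3′ UTR, Il6st 5641 and Stat3 3701, longer than 98.1%, 97.3% and 90.8% of genes, whose median was 1084 bases. Socs3, Pim1, Jak1, Pim3 and Pim2 had 1474, 1365, 1128, 964 and 915 bases. Seeds of other families were matched too, miR-16-5p in Lifr, Il6st, Pim1 and Pim3 (22.2% of all UTRs) and miR-19b-3p in Lifr, Il6st and Socs3 (11.9%). A match is a stretch of letters and was not tested as a site.

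The authors deposited normalised reads per gene, exonic and intronic, as 1 mean per group. The reads of each library were recovered from these means, and the libraries of a group are called A, B and C. Nothing in the labels says that they came from separate cultures, so p-values cover the spread of these libraries alone, and that spread may be technical. Libraries held 5889725 to 31699447 exonic and 559045 to 5597604 intronic reads. In exons, A of each knockout correlated with A of its wild type at r of 0.916 (Dicer) and 0.892 (Dgcr8), and with B and C of its own knockout group at 0.880 and 0.891 (Dicer) and 0.856 and 0.830 (Dgcr8). A is by definition the library with the lowest mean r to the others of its group, so a low r within the group is partly set by the naming, and in TFC the choice was close (0.771 for A and 0.772 for B). Among all tested genes, A was the highest library in both groups for 31.1% (Dicer) and 33% (Dgcr8), so members' differences are also given for A alone and for B and C. Each table was scaled on its own, and levels are not compared between tables. Dicer1 had 1590 exonic reads in Dicer1-/- cells and 3239 in TFC, and Dgcr8 804 in Dgcr8-/- cells and 2528 in V6.5, in both cases with groups that did not overlap. The deleted stretch is not named in the labels, so these reads are no check of a null allele.

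Of the ESC markers, Pou5f1 had 19210 reads in Dicer1-/- cells and 16642 in TFC, and 15642 reads in Dgcr8-/- cells and 9585 in V6.5. Nanog, Sox2, Zfp42 and Utf1 were also found in all groups. Of 7 ESC markers listed, only 5 were resolved per library and tested in exons. In the Dicer pair 3 of these were higher and 2 lower (median log2 fold change 0.14). In the Dgcr8 pair 4 were higher and 1 lower (median 0.80), and none was called in either pair. In the Dgcr8 pair, trophectoderm, fibroblast, primitive endoderm, and mesoderm and streak markers moved with the groups, while neural markers overlapped. The 6 trophectoderm markers summed to 281 to 1284 reads in Dgcr8-/- libraries and 9544 to 13559 in V6.5, and the 8 fibroblast markers to 492 to 1364 reads in Dgcr8-/- libraries and 5683 to 12991 in V6.5. The 6 primitive endoderm markers summed to 172 to 262 reads in Dgcr8-/- libraries and 637 to 1191 in V6.5, and the 5 mesoderm and streak markers to 73.0 to 179 reads in Dgcr8-/- libraries and 274 to 3999 in V6.5. Of the last list, T was at 0 in Dgcr8-/- libraries and averaged 1443 reads in V6.5. Among tested markers of these lists, 1 fibroblast, 2 primitive endoderm and 1 mesoderm and streak marker were higher in Dgcr8-/- cells, the others lower. The 5 neural markers summed to 2679 to 5121 reads in Dgcr8-/- libraries and 3359 to 7147 in V6.5. Of the neural markers tested, 2 were higher and 2 lower (median log2 fold change 0.76). In the Dicer pair, trophectoderm markers summed to 1266 to 1794 reads in Dicer1-/- libraries and 558 to 771 in TFC. Of those tested, 3 were higher and 1 lower (median log2 fold change 1.69). Mesoderm and streak markers summed to 383 to 498 reads in Dicer1-/- libraries and 27.8 to 245 in TFC. Of those tested, 2 were higher and 2 lower (median -0.54). Fibroblast markers summed to 380 to 593 reads in Dicer1-/- libraries and 388 to 734 in TFC, though 7 were lower and 1 higher (median -2.07). Primitive endoderm markers summed to 293 to 337 reads in Dicer1-/- libraries and 146 to 978 in TFC. Of those tested, 2 were higher and 2 lower. Neural markers summed to 2297 to 4456 reads in Dicer1-/- libraries and 2374 to 3923 in TFC, with 2 higher and 2 lower (median 0.72). The part of such cells in the values below was not tested, and in bulk RNA fewer cells of a type and less RNA per cell cannot be told apart.

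**Figure D1:**
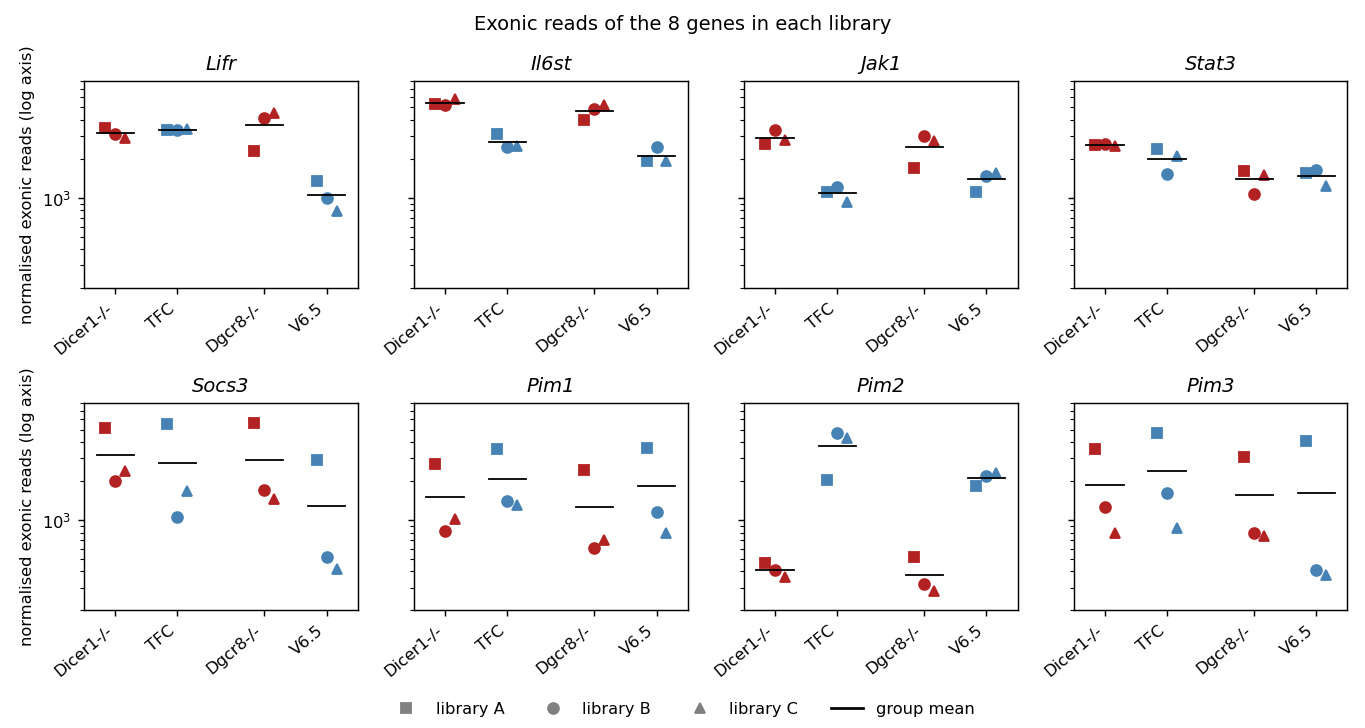
Normalised exonic reads (log axis) of the 8 genes in each library of Dicer1-/-, TFC, Dgcr8-/- and V6.5 cells. Squares, circles and triangles are libraries A, B and C, and lines are group means. Pim2 stands below its wild type in all 6 knockout libraries, Il6st and Jak1 stand above, and Socs3, Pim1 and Pim3 are highest in A of every group.

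At the receptor, the shared chain Il6st stood higher in both knockouts, while the LIF-binding chain Lifr stood higher in Dgcr8-/- cells. Il6st (chromosome 13, 112464070 to 112510086, plus strand) had 5289, 5239 and 5827 exonic reads in Dicer1-/- libraries A, B and C, against 3137, 2485 and 2521 in TFC. Its level in Dgcr8-/- libraries was 4033, 4894 and 5232 reads, against 1912, 2478 and 1935 in V6.5. The groups did not overlap in either pair, and the lowest knockout library held more reads than the highest wild-type library. The log2 fold change was 1.01 (SE 0.22) without Dicer1 and 1.16 (SE 0.25) without Dgcr8. For A alone it was 0.75 in the Dicer pair and 1.08 in the Dgcr8 pair, and over B and C it was 1.14 and 1.21.

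Lifr (chromosome 15, 7090614 to 7197489, plus strand) had 3489, 3119 and 2916 exonic reads in Dicer1-/- libraries, against 3344, 3344 and 3433 in TFC. These groups overlapped, with a log2 fold change of -0.09 (SE 0.21). Lifr had 2286, 4124 and 4514 reads in Dgcr8-/- libraries, against 1356, 1001 and 787 in V6.5. Every Dgcr8-/- library stood above every V6.5 library, at a ratio of means of 3.47 and a log2 fold change of 1.77 (SE 0.36). The difference was 0.75 for A alone and 2.28 over B and C, since Dgcr8-/- A was the lowest of its group and V6.5 A the highest. Whether the Lifr difference of the Dgcr8 pair exceeds that of the Dicer pair was not tested.

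Jak1, the kinase next to gp130, stood higher in both knockouts. The gene lies on chromosome 4 (101152367 to 101265282, minus strand), where the annotation places Raver2, a small nuclear RNA and a pseudogene within or across it. It had 2610, 3365 and 2806 exonic reads in Dicer1-/- libraries, against 1109, 1216 and 935 in TFC. Jak1 had 1705, 3013 and 2747 reads in Dgcr8-/- libraries, against 1112, 1487 and 1564 in V6.5. The groups were apart in both pairs, narrowly in the Dgcr8 pair, where A of Dgcr8-/- lay just above C of V6.5. The ratio of means was 2.69 in the Dicer pair, with a log2 fold change of 1.43 (SE 0.24), and 1.79 in the Dgcr8 pair, with a log2 fold change of 0.82 (SE 0.31).

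Stat3, the transcription factor that carries the signal to the nucleus, differed little. The gene lies on chromosome 11 (100885098 to 100939540, minus strand) and overlaps Stat5a on the other strand. It had 2577, 2592 and 2512 exonic reads in Dicer1-/- libraries, against 2400, 1526 and 2097 in TFC. The Dicer1-/- libraries lay close together and just above the TFC range, with a log2 fold change of 0.38 (SE 0.24). Stat3 had 1621, 1068 and 1501 reads in Dgcr8-/- libraries, against 1564, 1641 and 1234 in V6.5. These groups overlapped, with a log2 fold change of -0.09 (SE 0.28). The labels' protocol kept strand, but whether the counting used it is not stated in the sources, so reads of Stat3 and Stat5a may be shared. Stat5a itself averaged 12.6 to 46.6 exonic reads over the 4 groups.

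Socs3, the feedback inhibitor of gp130, was set more by library than by group. The gene lies on chromosome 11 (117966079 to 117970047, minus strand). It had 5123, 2001 and 2380 exonic reads in Dicer1-/- libraries A, B and C, against 5489, 1061 and 1668 in TFC. Socs3 had 5586, 1697 and 1463 reads in Dgcr8-/- libraries, against 2925, 521 and 421 in V6.5. Library A was the highest of each group, and knockout and wild type overlapped in both pairs. The log2 fold change was 0.44 (SE 0.59) in the Dicer pair and 1.48 (SE 0.80) in the Dgcr8 pair. Within the Dgcr8 pair it was 0.93 in A and 1.75 over B and C, and within the Dicer pair -0.10 in A and 0.71 over B and C.

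A stretch near the start of Socs3 is shown because Stat factors bind a paired motif, TTCNNNGAA, that reads the same on both strands. In the 250 bases before RefSeq starts, this motif occurred in 7.02% of 32851 windows and, among 10 windows of the 8 genes, in that of Socs3 alone. The stricter TTCCNGGAA, which is held within the first motif, occurred in 0.913% of windows and in 0 of the 10. The Socs3 match, in capitals within 30 bases (chr11:117969501-117969530, minus strand, GRCm38.p6), starts 154 bases before the RefSeq start. GENCODE places the 5′ end of the gene farther out, at 117970047, so by that annotation the stretch lies inside the gene, outside its annotated exons.
Socs3: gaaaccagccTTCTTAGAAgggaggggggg

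Of the 3 Pim kinases, Pim2 stood far lower in both knockouts, while Pim1 and Pim3 overlapped between groups. Pim2 (chromosome X, 7878262 to 7883432, plus strand) had 467, 409 and 364 exonic reads in Dicer1-/- libraries, against 2048, 4726 and 4329 in TFC. Its Dgcr8-/- libraries had 517, 321 and 284 reads, against 1831, 2173 and 2325 in V6.5. In each pair the groups were far apart, with every knockout library below every library of its wild type. The knockout mean was 0.112 of TFC and 0.177 of V6.5, with log2 fold changes of -3.08 (SE 0.35) and -2.54 (SE 0.32). For A alone the values were -2.13 in the Dicer pair and -1.82 in the Dgcr8 pair, and over B and C they were -3.55 and -2.89, so both pairs had the smaller difference in A.

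Pim1 (chromosome 17, 29490753 to 29496112, plus strand, with the antisense gene Gm26885 across it) had 2686, 819 and 1021 exonic reads in Dicer1-/- libraries, against 3549, 1392 and 1313 in TFC. In Dgcr8-/- libraries it had 2457, 609 and 696 reads, against 3588, 1145 and 791 in V6.5. Library A held the most Pim1 reads in every group, and the groups overlapped because of it. Within A the log2 difference was -0.40 in the Dicer pair and -0.55 in the Dgcr8 pair, and over B and C it was -0.56 and -0.55. The fold change over all libraries was -0.51 (SE 0.52) and -0.55 (SE 0.70) on the log2 scale.

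Pim3 (chromosome 15, 88862186 to 88865726, plus strand) had 3554, 1269 and 793 exonic reads in Dicer1-/- libraries, against 4664, 1612 and 867 in TFC. In Dgcr8-/- libraries it had 3093, 799 and 755 reads, against 4075, 413 and 373 in V6.5. Its SE was the largest of the 8 genes in both pairs, and A of each group exceeded B and C. The log2 fold change was -0.29 (SE 0.67) in the Dicer pair and 0.52 (SE 0.97) in the Dgcr8 pair. Within the Dgcr8 pair it was -0.40 in A and 0.98 over B and C, so the 2 kinds of library gave opposite signs.

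**Figure D2:**
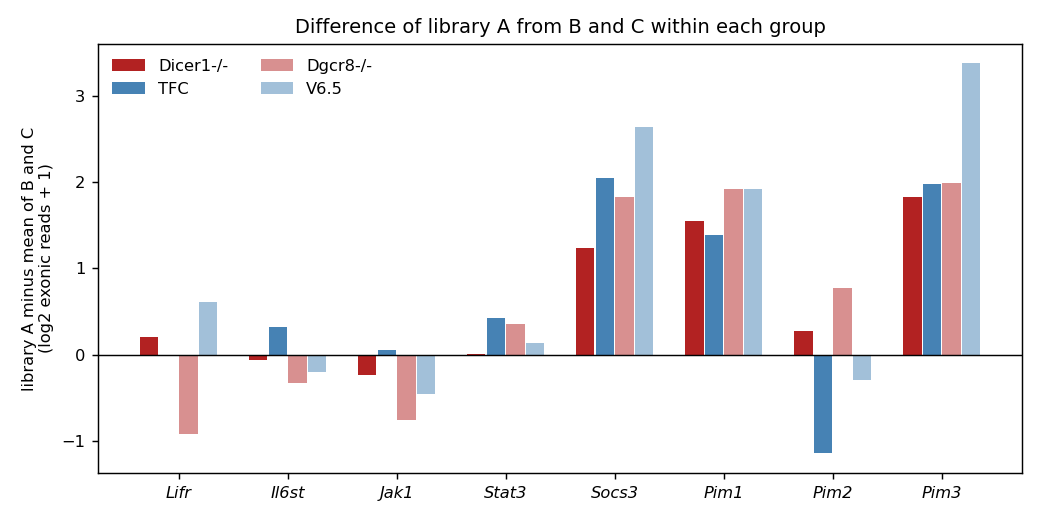
Library A minus the mean of B and C, in log2 exonic reads, for each gene in Dicer1-/-, TFC, Dgcr8-/- and V6.5 cells (1 bar per group). Socs3, Pim1 and Pim3 lie above 1 in every group, while Pim2 lies above 0 in both knockouts and below 0 in both wild types.

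The excess in A was shared by Socs3, Pim1 and Pim3. In log2 reads, A exceeded the mean of B and C by 1.23 in Dicer1-/-, 2.04 in TFC, 1.83 in Dgcr8-/- and 2.64 in V6.5 for Socs3. For Pim1 the excess was 1.55 in Dicer1-/-, 1.39 in TFC, 1.91 in Dgcr8-/- and 1.91 in V6.5. For Pim3 it was 1.82 in Dicer1-/-, 1.98 in TFC, 1.99 in Dgcr8-/- and 3.37 in V6.5. Among all tested genes, A lay over 2-fold above both B and C in both groups for 11.2% in the Dicer pair and 13.7% in the Dgcr8 pair. Lifr, Il6st, Jak1 and Stat3 did not show it, and what sets A apart was not tested.

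By limma's test with adjustment over all genes (adjusted p under 0.05), 2 of the 8 genes were called in Dicer exons, Jak1 higher and Pim2 lower, where 1.24% of 13175 tested genes were called (1.02% higher and 0.228% lower). In Dgcr8 exons 1 of the 8 was called, Pim2 lower, where 1.26% of 12753 were (0.745% higher and 0.518% lower). The groups did not overlap for 4 of 8 members in the Dicer pair (Il6st, Jak1 and Stat3 higher, Pim2 lower), where 21.3% of all tested genes did not (11.7% higher and 9.65% lower). They did not for 4 of 8 in the Dgcr8 pair (Lifr, Il6st and Jak1 higher, Pim2 lower), where 22.5% did not (10.6% higher and 11.9% lower). The members' median log2 fold change was 0.14 in the Dicer pair and 0.67 in the Dgcr8 pair, beside -0.01 and -0.08 over all genes. With a term that separates A from B and C, Il6st, Jak1 and Pim2 were called in the Dicer pair, where 1611 of 13175 genes were. In the Dgcr8 pair it called Lifr, Il6st, Jak1, Socs3 and Pim2, where 2161 of 12753 genes were called. Library A was picked from these same values, so calls with its term are not independent of them. With B and C alone, limma called Pim2 but not Jak1 in the Dicer pair, where it called 61 of 13175 genes. In the Dgcr8 pair B and C alone gave calls of Lifr, Il6st, Jak1, Socs3, Pim2 and Pim3, where 2035 of 12753 genes were called. The members' counts come from the contrast that the genes were listed on, so they are a description and no independent support. Pim2 lost its calls when B or C of either group was left out, in both pairs, and in the Dicer pair also with limma-voom or without a variance trend. Jak1 lost its call in the Dicer pair when any library but A of TFC was left out, and with limma-voom or without a variance trend.

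**Figure D3:**
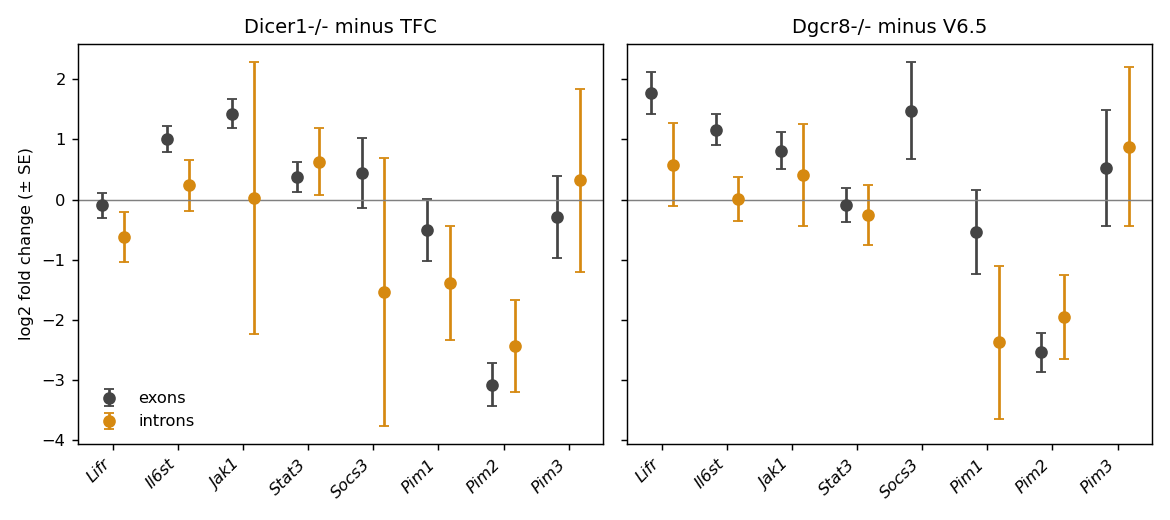
Log2 fold change with its SE of the 8 genes in exonic reads (grey) and intronic reads (orange), Dicer1-/- minus TFC at left and Dgcr8-/- minus V6.5 at right, 3 libraries a group. Pim2 lies below 0 in both kinds of read, whereas Il6st lies above 0 in exons and near 0 in introns. Socs3 is not drawn for Dgcr8 introns, where it fell under the minimum level.

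Intronic reads come mostly from RNA not yet spliced, and they were few for these genes. Of the members, 8 passed the minimum of 10 reads in Dicer introns and 7 in Dgcr8 introns, where Socs3, whose intron length is 536 bases, averaged 7.22 reads in Dgcr8-/- cells and 1.97 in V6.5. None was called in introns, where 0.353% (Dicer) and 1.52% (Dgcr8) of genes were. Groups did not overlap for 3 members in Dicer introns, Lifr, Pim1 and Pim2, all lower, where 17.3% of genes did not overlap (7.99% lower). In Dgcr8 introns this held for Pim2 alone, lower, where 19.7% did not overlap (10.1% lower).

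Pim2 had 56.0, 78.6 and 22.6 intronic reads in Dicer1-/- libraries A, B and C, against 91.9, 535 and 338 in TFC. Its Dgcr8-/- libraries had 8.54, 49.9 and 52.7 intronic reads, against 91.8, 109 and 146 in V6.5. Pim2 intronic reads were thus lower in every knockout library than in every library of its wild type. The log2 fold change was -2.43 (SE 0.77) in the Dicer pair and -1.95 (SE 0.70) in the Dgcr8 pair, and the exonic values lay within 1 such SE.

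Il6st, higher in exons, overlapped between groups in introns in both pairs. Il6st had 240, 178 and 260 intronic reads in Dicer1-/- libraries, against 255, 162 and 162 in TFC, a log2 fold change of 0.24 (SE 0.43). Its Dgcr8-/- libraries had 190, 136 and 136 intronic reads, against 157, 181 and 120 in V6.5, a log2 fold change of 0.01 (SE 0.37). Jak1 is a weak measure there, since library B of both Dicer1-/- and TFC was recovered as 0 intronic reads. These 0 values were solved from the group means, and intronic B was matched only weakly to exonic B (r of 0.0927 in Dicer1-/- and 0.178 in TFC). Its mean was 68.4 intronic reads in Dicer1-/- cells and 62.2 in TFC, and 39.3 in Dgcr8-/- cells and 35.4 in V6.5. Its intronic log2 fold change was 0.02 (SE 2.26) in the Dicer pair, and -2.15 to 2.21 when 1 library was left out, the lowest without TFC B and the highest without Dicer1-/- B. In the Dgcr8 pair it was 0.41 (SE 0.85), and -0.27 to 1.04 when 1 library was left out, so no direction can be read for Jak1 introns. Exonic against intronic change was not tested for these genes.

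Lifr had 177, 134 and 181 intronic reads in Dicer1-/- libraries, against 280, 247 and 228 in TFC. Its intronic groups were apart there, lower in Dicer1-/- cells (log2 fold change -0.62, SE 0.42), whereas its exonic groups overlapped. In Dgcr8-/- libraries Lifr had 121, 72.8 and 49.8 intronic reads, against 154, 25.5 and 32.4 in V6.5, and these overlapped (0.58, SE 0.69). Stat3 introns overlapped in both pairs, with log2 fold changes of 0.63 (SE 0.56) and -0.26 (SE 0.50). Pim1 averaged 52.8 intronic reads in Dicer1-/- cells and 114 in TFC (log2 fold change -1.38, SE 0.95), and 34.4 in Dgcr8-/- cells and 72.6 in V6.5 (-2.37, SE 1.27). Pim3 averaged 42.1 in Dicer1-/- cells and 45.5 in TFC, and 47.6 in Dgcr8-/- cells and 28.3 in V6.5, with SEs above 1 on the log2 scale.

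**Figure D4:**
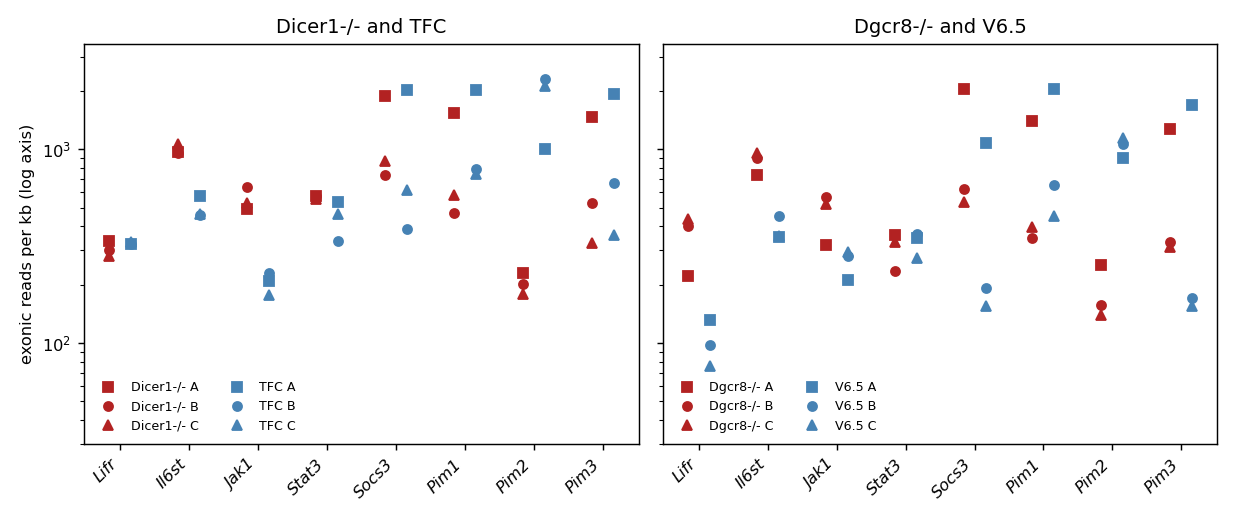
Exonic reads per kb of exon (log axis) of the 8 genes in each library, Dicer1-/- and TFC at left and Dgcr8-/- and V6.5 at right. Red is knockout and blue wild type, and squares, circles and triangles are libraries A, B and C. By group mean, Pim2 is the first gene in TFC, the second in V6.5 and the last in both knockouts, while single libraries overlap those of other genes.

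To order the genes by level, reads were divided by the exon length that the deposited tables give. In Dicer1-/- cells the order of mean reads per kb was Socs3 (1163), Il6st (1000.0), Pim1 (861), Pim3 (774), Stat3 (566), Jak1 (552), Lifr (307) and Pim2 (202). In TFC it was Pim2 (1813), Pim1 (1189), Socs3 (1006), Pim3 (984), Il6st (498), Stat3 (444), Lifr (327) and Jak1 (205). Pim2 was thus the last gene in Dicer1-/- cells and the first in TFC, though in TFC its library range overlapped that of Pim1. Neighbours in the order had separate ranges only for Jak1 and Lifr and for Lifr and Pim2 in Dicer1-/- cells, and for Stat3 and Lifr and for Lifr and Jak1 in TFC.

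In Dgcr8-/- cells the order was Socs3 (1070), Il6st (866), Pim1 (715), Pim3 (640), Jak1 (470), Lifr (352), Stat3 (309) and Pim2 (183 reads per kb), and all neighbours overlapped. In V6.5 it was Pim1 (1050), Pim2 (1034), Pim3 (670), Socs3 (473), Il6st (387), Stat3 (327), Jak1 (262) and Lifr (101), where only Jak1 and Lifr were apart. Il6st and Socs3 led Pim2 in both knockouts, and Pim2 led both in each wild type, by mean reads per kb. The spread of Socs3, Pim1 and Pim3 came mostly from A, with an SD of 625, 585 and 610 reads per kb in Dicer1-/- cells and 881, 724 and 832 in TFC.

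Across the 12 exonic libraries, on log2 values centred within each table, the members fell into patterns that follow the groups and library A, which all points share. Il6st and Jak1 followed each other (Pearson r = 0.89), and Pim2 ran opposite to Il6st (r = -0.97) and to Jak1 (r = -0.92). Pim3 followed Pim1 (r = 0.86) and Socs3 (r = 0.86), and Pim1 followed Pim2 far less (r = 0.28). Among 12336 genes tested in both pairs, the 3 most like Pim2 were Lin28a (r = 0.98), Cct4 (0.98) and Tro (0.97). Those most like Pim1 were Atxn7l3 (0.99), Trmt1 (0.98) and Armc6 (0.98), most like Pim3 were Plekhg5 (0.98), Rrp9 (0.98) and Slc45a4 (0.97), and most like Socs3 were Sox12 (0.99), Bcl7a (0.98) and Parp1 (0.98). These values describe 12 libraries in 4 groups and carry no p.

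**Figure D5:**
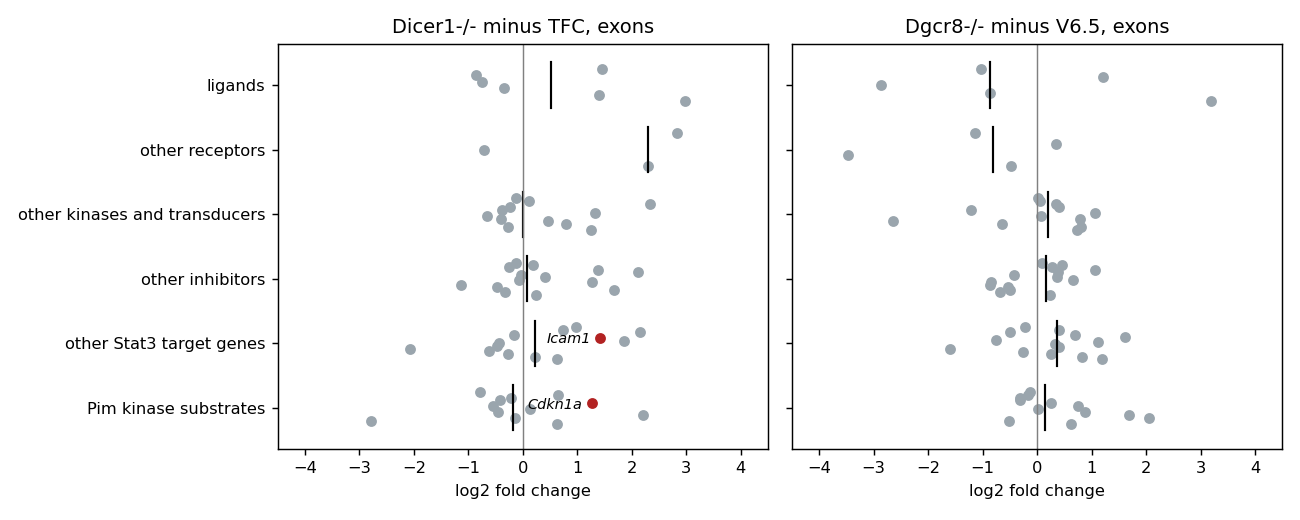
Log2 fold change in exonic reads of the tested genes of 6 lists around the 8 genes, Dicer1-/- minus TFC at left and Dgcr8-/- minus V6.5 at right. Each point is a gene, black lines are list medians, and red points are genes called by limma (Icam1 and Cdkn1a in the Dicer pair, none in the Dgcr8 pair).

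The wider pathway was read from 63 genes in 6 lists of ligands, other receptors, other kinases and transducers, other inhibitors, other Stat3 target genes and Pim kinase substrates. In Dicer exons 2 of 60 tested genes were called, both higher, where 1.24% of all genes were, and the lists' median log2 fold change was 0.04 beside -0.01 for all genes. In Dgcr8 exons 0 of 61 were called by limma, where 1.26% of all genes were. There 8 of the 61 had an unadjusted limma p under 0.05, as did 2070 of all 12753 genes. Limma-voom called 0 of the 61, and their median was 0.23 beside -0.08. In introns limma called 0 of 51 (Dicer) and 0 of 49 (Dgcr8), with 5 and 3 genes at an unadjusted p under 0.05 and 0 by limma-voom in either. With the term for A, 6 genes higher and 2 lower passed in Dicer exons, where 957 of 13175 genes were called higher and 654 lower. In Dgcr8 exons 6 higher and 3 lower passed, where 1062 of 12753 genes were called higher and 1099 lower. Library A was picked from these same values, so results with its term, here and below, are no independent support.

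Among the other Stat3 target genes, Icam1, a cell adhesion molecule, rose in Dicer1-/- cells. It had 1845, 1820 and 1900 exonic reads in Dicer1-/- libraries, against 917, 583 and 630 in TFC (log2 fold change 1.41, SE 0.27, limma adjusted p = 0.0490). It was higher in 3 of 3 libraries, and over the alternatives the adjusted p was 0.00203 to 0.351. In Dgcr8-/- libraries Icam1 had 1922, 1079 and 1153 reads, against 785, 386 and 277 in V6.5, again apart (1.61, SE 0.45), with a limma adjusted p of 0.130, and 0.00168 with the term for A. Whether the pairs differ in Icam1 was not tested.

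Myc, a growth-promoting transcription factor and Stat3 target in ESCs, had 170 exonic reads in Dicer1-/- cells and 760 in TFC (log2 fold change -2.08, SE 0.48, limma adjusted p = 0.0894). In Dgcr8-/- cells it had 260 reads and in V6.5 825 (-1.61, SE 0.47, limma adjusted p = 0.142). All 6 knockout libraries lay below all libraries of their wild type. With the term for A, a library picked from these same values, Myc passed in both pairs (limma adjusted p = 0.0110 and 0.0038). Fos, an immediate early gene, was low at 48.3 reads in Dicer1-/- cells and 20.4 in TFC. Of this list 1 of 13 tested genes was called in the Dicer pair and 0 of 14 in the Dgcr8 pair, with medians of 0.23 and 0.37. Mcl1, whose reads could not be resolved per library in Dicer exons, was left out there.

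Among the Pim kinase substrates, Cdkn1a, the cyclin-dependent kinase inhibitor p21, rose in Dicer1-/- cells. It had 1965, 2488 and 2629 exonic reads in Dicer1-/- libraries, against 1025, 948 and 958 in TFC (log2 fold change 1.26, SE 0.24, limma adjusted p = 0.0455, 0.00189 to 0.351 over the alternatives). In Dgcr8-/- libraries it had 2145, 1634 and 1651 reads, against 863, 2040 and 1960 in V6.5, and the groups overlapped (0.25, SE 0.38). Within A the Dgcr8 difference was 1.31 and over B and C -0.28. The calls of Icam1 and Cdkn1a were both lost when any library but A of TFC was left out, with B and C alone, under upper-quartile scaling, with limma-voom and without a variance trend. Myb, a transcription factor, had 555 reads in Dgcr8-/- cells and 141 in V6.5 (2.05, SE 0.44, limma adjusted p = 0.0707, and 0.00414 with the term for A), and 631 in Dicer1-/- cells and 650 in TFC. Map3k5, a stress kinase, had 339 reads in Dicer1-/- cells and 97.4 in TFC, and 335 in Dgcr8-/- cells and 118 in V6.5, with a limma adjusted p of 0.295 and 0.217. Nfatc1 was low, at 26.8 reads in Dicer1-/- cells and 60.2 in TFC.

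No ligand or receptor outside the 8 genes was called. Lif itself averaged 236 reads in Dicer1-/- cells and 119 in TFC, and 198 in Dgcr8-/- cells and 353 in V6.5, and its libraries overlapped in both pairs. Osm, a relative of LIF, was rare, with 52.3 reads in Dicer1-/- cells and 8.21 in TFC, and 41.7 in Dgcr8-/- cells and 3.82 in V6.5, the knockout libraries above the wild-type ones in both pairs (limma adjusted p = 0.468 and 0.284). Il6 was listed at 0 in all libraries of both pairs. Il11 and Clcf1, other ligands that signal through gp130, and the receptors Cntfr and Il6ra averaged at most 155 reads in any group, with limma adjusted p of 0.342 or more.

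Among other kinases and transducers 0 of 12 were called in either pair. Jak2 had 381 reads in Dicer1-/- cells and 91.0 in TFC, and 533 in Dgcr8-/- cells and 428 in V6.5, apart in the Dicer pair alone. Ptpn11, the phosphatase Shp2 that docks on gp130, had 1382 reads in Dgcr8-/- cells and 3208 in V6.5 (log2 fold change -1.21, SE 0.26, limma adjusted p = 0.0701), and 2293 in Dicer1-/- cells and 2979 in TFC. Ptpn11 passed in the Dgcr8 pair with the term for A (limma adjusted p = 0.0027).

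Of the other inhibitors, 0 of 14 were called in either pair. Socs2 had 1203 reads in Dicer1-/- cells and 2689 in TFC (log2 fold change -1.14, SE 0.24, limma adjusted p = 0.0654), with groups apart and a limma adjusted p of 0.00296 with the term for A, and 479 in Dgcr8-/- cells and 955 in V6.5, where they overlapped (limma adjusted p = 0.434). Socs5 had 392 reads in Dicer1-/- cells and 269 in TFC, and Pias4, an inhibitor of Stat binding, 547 in Dicer1-/- cells and 445 in TFC, with SEs above 1. Pias3, the named inhibitor of Stat3, had 561 reads in Dgcr8-/- cells and 285 in V6.5 (1.06, SE 0.48, limma adjusted p = 0.339, and 0.0242 with the term for A).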

How the data were processed

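The submitters' processing notes name TopHat2 2.0.12, DESeq and mm10 for these 12 polyA libraries, and the counting of exonic and intronic reads is not given in the sources. Per the file headers, the authors deposited 1 column per genotype in each of 4 tables, a signal of reads scaled by library and averaged over 3 libraries. Each mean is a whole-number combination of 3 steps, and solving for them gave each library's reads for 99.5166 to 99.9946% of genes per column. Genes with several solutions, none of them a member, were left out. Per library, the recovered read number was even for 60.15 to 80.4153% of genes with any reads. Precision is thus lower than depth implies, and counting intervals were not computed. Library A has the lowest correlation with the other 2, B and C follow by size factor, and the letters are no replicate numbers of the labels. Intronic libraries were matched to exonic ones by their deviations, clearly for A (r of 0.306 to 0.431) and weakly for B and C (0.0927 to 0.287). Tests were fitted with limma 3.58.1 in R 4.3.3 on log2(value + 1) with a variance trend, knockout minus wild type, on genes averaging 10 or more reads over a table's 6 libraries. Benjamini-Hochberg adjustment ran over all genes, with 4 residual degrees of freedom. A fold change is on the log2(value + 1) scale, which understates low genes. The recovery and the fit were also run on simulated counts, drawn without an excess of even numbers and without a library like A. The outcome is not given here, and that run is no check of these features of the data. The 8 genes, the lists and the tests were chosen with earlier results of these data known. Named genes are the 8, the targeted genes, the markers, each list gene called, the 2 of each list with the largest exonic change per pair, and the 3 genes most like Socs3 and each Pim gene; Lif, Il6 and Mcl1 were added after their values were seen. Loci and UTRs are from GENCODE M21, promoters and microRNAs from RefSeq. Planned tests made for counts were not used on group means.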

Additional observations from a re-analysis of the deposited data

How the results depend on the processing

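Over the alternatives, 432 of the members' log2 fold changes stayed within the residual spread between libraries of the main fit. The other 2 moved by more: with B and C alone, Lifr and Pim2 in Dgcr8 exons were 2.28 and -2.89. The count is no measure of stability. Dropping the filter or the variance trend, or adding the term for A, leaves a fold change as it was by construction. A change of sign can also lie within that spread. Pim2 stayed below wild type in both kinds of read, in every alternative. In exons, values took both signs for Socs3 (-0.06 to 1.12) and Pim3 (-0.90 to 0.37) in the Dicer pair, and for Stat3 (-0.22 to 0.09), Pim1 (-1.18 to 0.09) and Pim3 (-0.14 to 1.65) in the Dgcr8 pair, all uncalled except Pim3 in the Dgcr8 pair with B and C alone (0.98). The number of genes called was 164 and 161 in Dicer and Dgcr8 exons and 41 and 163 in their introns. With a term for A it was 1611, 2161, 91 and 451, and among pathway genes 8, 9 and 1 (Dicer exons, Dgcr8 exons, Dgcr8 introns). With B and C alone, limma called 61 genes in Dicer exons, 2035 in Dgcr8 exons and 0 in Dicer introns (1163 at an unadjusted p under 0.05), and 0 and 9 pathway genes in Dicer and Dgcr8 exons. Without a variance trend it called 35 genes in Dicer exons, 1 in Dicer introns and 107 in Dgcr8 introns, and limma-voom called 21 in Dicer exons, 49 in Dgcr8 exons and 64 in Dicer introns. Both of these settings and upper-quartile scaling called 0 pathway genes in Dicer exons (7 at an unadjusted p under 0.05 in each). With a pseudocount of 8, 82 and 304 genes were called in Dicer and Dgcr8 introns, and 1 pathway gene in Dgcr8 introns.

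Leaving out 1 library gave 0 to 481 genes in Dicer exons, 0 to 37 in Dicer introns, 0 to 465 in Dgcr8 exons and 26 to 176 in Dgcr8 introns, and 0 to 4 pathway genes in Dicer exons and 0 to 2 in Dgcr8 exons. In exons the number was 0 without Dicer1-/- B or C or TFC C (1156 to 1514 genes at an unadjusted p under 0.05), 7 without TFC B and 90 without Dicer1-/- A. It was 0 without B or C of Dgcr8-/- or V6.5 (1275 to 1501), 465 without Dgcr8-/- A, 375 without V6.5 A and 481 without TFC A. In introns it was at most 13 when any library of the Dicer pair but TFC A was left out, and 26 to 72 without B or C of Dgcr8-/- or V6.5. The causes were not tested. No paired analysis was possible because the columns carry no replicate numbers, and scaling by trimmed means and the count tools planned beside limma were not run on these group means. Upper-quartile scaling and limma-voom were chosen after seeing the data. V6.5 A, with 5889725 exonic reads, was the shallowest library.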
